A study of Mus musculus with 9 samples.

Results

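The smooth muscle contractile genes described here are 10 genes chosen by name, Acta2, Tagln, Cnn1, Myh11, Mylk, Myl9, Tpm1, Tpm2, Lmod1 and Des, out of 19938 genes measured. All 10 were on the array, each with exactly 1 probe set, so no choice between probe sets was needed. They were measured in mouse embryonic fibroblasts (MEFs), primary connective tissue cells grown from embryos. The cells were homozygous for the ΔG allele of Rb1 (Rb ∆G/∆G), which is mutated at the site where the retinoblastoma protein commonly contacts E2F transcription factors, lacked Rb1 function (Rb -/-, null), or were wild type (Rb +/+, WT), with 3 arrays per genotype and 9 in all. All groups shared the same treatment: cells were plated on 15 cm dishes and, 24 h later, moved to medium with 0.1% serum (serum deprivation). The labels state neither the age of the embryos nor the part of the gene that the null allele lacks. They also do not tie each array to an embryo of its own, so a p-value reflects how far these samples scatter, and that scatter may be technical. Values are log2 signals from RMA, in which a difference of 1 is a doubling.

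Smooth muscle cells shorten by sliding myosin along actin filaments, and fibroblasts that make the same proteins pull on the matrix around them. In these cells calcium and calmodulin activate the kinase encoded by Mylk, which phosphorylates the regulatory light chain and switches the myosin on. The genes are classic targets of serum response factor, which binds a DNA element called the CArG box and is helped by the actin-sensing coactivators MRTF-A and MRTF-B or, in muscle, by myocardin. The same genes mark fibroblasts that turn into contractile myofibroblasts, and their RNA is known to depend on serum and on cell tension.

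Promoter sequence was set beside the values because the members moved together. RefSeq promoter windows (GRCm38.p6) were found for 8 members, Acta2, Cnn1, Mylk, Myl9, Tpm1, Tpm2, Lmod1 and Des. They ran from 250 bases before the annotated start to a short way past it, and matches were counted over the whole window. The strict CArG box, 2 C, 6 letters that are A or T, and 2 G, was searched on both strands. It was present in 1 of the 8 member windows, that of Myl9, and in 1.63% of all 32817 windows of the same length. Allowing 1 G or C among the middle 6 letters gave matches in 2 of 8 member windows, Acta2 and Myl9, and in 9.99% of all windows. Those 2 windows are shown with these matches in capitals, and those of Cnn1 and Mylk, the 2 members with the largest difference between ΔG and null by p-value, are shown because they hold no match. Each is the 250 bases before the start, 5′ to 3′ on the strand of the gene: Acta2 is chr19:34255374-34255623 (minus strand), Myl9 is chr2:156775214-156775463 (plus strand), Cnn1 is chr9:22099003-22099252 (plus strand) and Mylk is chr16:34784700-34784949 (plus strand).
Acta2: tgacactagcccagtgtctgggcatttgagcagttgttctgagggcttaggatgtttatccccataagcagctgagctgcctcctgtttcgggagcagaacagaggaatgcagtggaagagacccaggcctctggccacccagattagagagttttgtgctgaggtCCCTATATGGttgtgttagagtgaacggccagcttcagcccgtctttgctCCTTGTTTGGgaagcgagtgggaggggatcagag
Myl9: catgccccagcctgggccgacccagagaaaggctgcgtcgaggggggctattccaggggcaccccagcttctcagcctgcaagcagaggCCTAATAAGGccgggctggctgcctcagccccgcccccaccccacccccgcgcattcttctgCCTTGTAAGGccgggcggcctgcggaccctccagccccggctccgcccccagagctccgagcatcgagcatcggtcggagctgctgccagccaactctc
Cnn1: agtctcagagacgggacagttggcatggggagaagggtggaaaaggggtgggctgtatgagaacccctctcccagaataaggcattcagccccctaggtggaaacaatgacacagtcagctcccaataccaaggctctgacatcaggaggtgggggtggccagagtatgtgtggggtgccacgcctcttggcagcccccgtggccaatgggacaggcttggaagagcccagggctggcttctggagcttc
Mylk: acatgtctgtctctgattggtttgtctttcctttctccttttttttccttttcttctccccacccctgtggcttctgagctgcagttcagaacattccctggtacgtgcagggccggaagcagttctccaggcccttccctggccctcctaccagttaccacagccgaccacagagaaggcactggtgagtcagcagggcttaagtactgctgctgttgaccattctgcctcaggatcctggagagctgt

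In Acta2 the matches CCCTATATGG and CCTTGTTTGG began 84 and 34 bases before the start, and in Myl9 the strict box CCTAATAAGG and the relaxed match CCTTGTAAGG began 161 and 99 bases before it. The motif CATTCC, read by TEAD factors, was found in 4 of 8 member windows (Acta2, Mylk, Tpm1 and Lmod1) and in 14.7% of all windows. The E2F-type motifs TTTCCCGC and TTTGGCGC were in none of the 8 member windows and in 1.07% and 0.515% of all windows, and TATAAA was in none of the 8 and in 13.6% of all. In the member windows matches of different motifs did not overlap, apart from the strict and relaxed CArG box in Myl9. Over all windows they can share letters, since TATAAA can lie inside a CArG box. A match describes letters in a window of this length only.

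Array medians lay between 6.329 and 6.401. Rb1, the targeted gene, read 9.53, 9.76 and 9.54 on the ΔG arrays, 8.18, 8.58 and 8.19 on the null arrays and 8.93, 9.17 and 9.16 on the WT arrays, with no overlap between the 3 groups. It averaged 9.61 ± 0.13 in ΔG and 8.31 ± 0.23 in null cells, against 9.08 ± 0.13 in WT cells (mean ± SD, n = 3 each), and was called lower in null than in WT (log2 −0.77, limma adjusted p = 0.0011) but not in ΔG minus WT (log2 0.53, adjusted p = 0.075). Probes outside the part lost in the null allele would still report RNA, so this signal does not by itself check the labels. The fibroblast marker genes, 15 in all, had a mean signal of 10.19 to 10.51 on ΔG arrays, 9.62 to 9.90 on null arrays and 10.44 to 10.63 on WT arrays. The RNA Xist, made from the inactive X chromosome of female cells, was high on 4 arrays (11.42 to 11.98) and low on the other 5 (4.24 to 4.45), and the mean of 3 Y-linked genes ran the opposite way (3.96 to 4.37 against 8.40 to 8.90). All 3 null arrays and WT replicate 3 were high in Xist, while all 3 ΔG arrays and WT replicates 1 and 2 were low. Xist pattern and genotype thus cannot be told apart between ΔG and null, and overlap in part in the comparisons with WT. WT replicate 3 was the lowest WT array for all 10 contractile genes, by a median of −0.41 against the mean of the other WT arrays (range −0.82 to −0.19), while the median over all genes was −0.01. Some bright genes outside the group were also lowest there, such as Actb (12.97 against 13.75 and 13.72) and Fn1 (12.81 against 13.46 and 13.47). Others, such as Tpm4 (11.22 against 11.15 and 11.11), were not. Replicate 3 was also the lowest of its group for 8 of the 10 contractile genes in ΔG and for 9 in null, where all arrays of the group share 1 Xist pattern.

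Most of these genes were highest in ΔG cells, intermediate in WT cells and lowest in null cells. This order of means held for 9 of the 10 genes, Tpm1 being the exception with its highest mean in WT. In ΔG against WT limma called none of the 10, where 0.813% of all genes were called. In null against WT 5 fell, where 10.1% of all genes were called lower. Between the mutants, 6 were higher in ΔG than in null and none was lower. Of all genes, 4.44% were called higher there and 4.27% lower. Leaving out 1 array gave 1 to 6 calls in null minus WT and 2 to 7 in ΔG minus null. No call was left in these comparisons once Y-linked signal entered the fit, which also widened most of their standard errors. Fits with an array left out can lose precision too. For either kind of fit, the share of all genes called was not set beside the counts. A gene is called where limma's p, adjusted by the Benjamini-Hochberg method over all 19938 genes, is under 0.05. In bulk RNA, fewer contractile cells and less RNA per cell cannot be told apart.

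**Figure D1:**
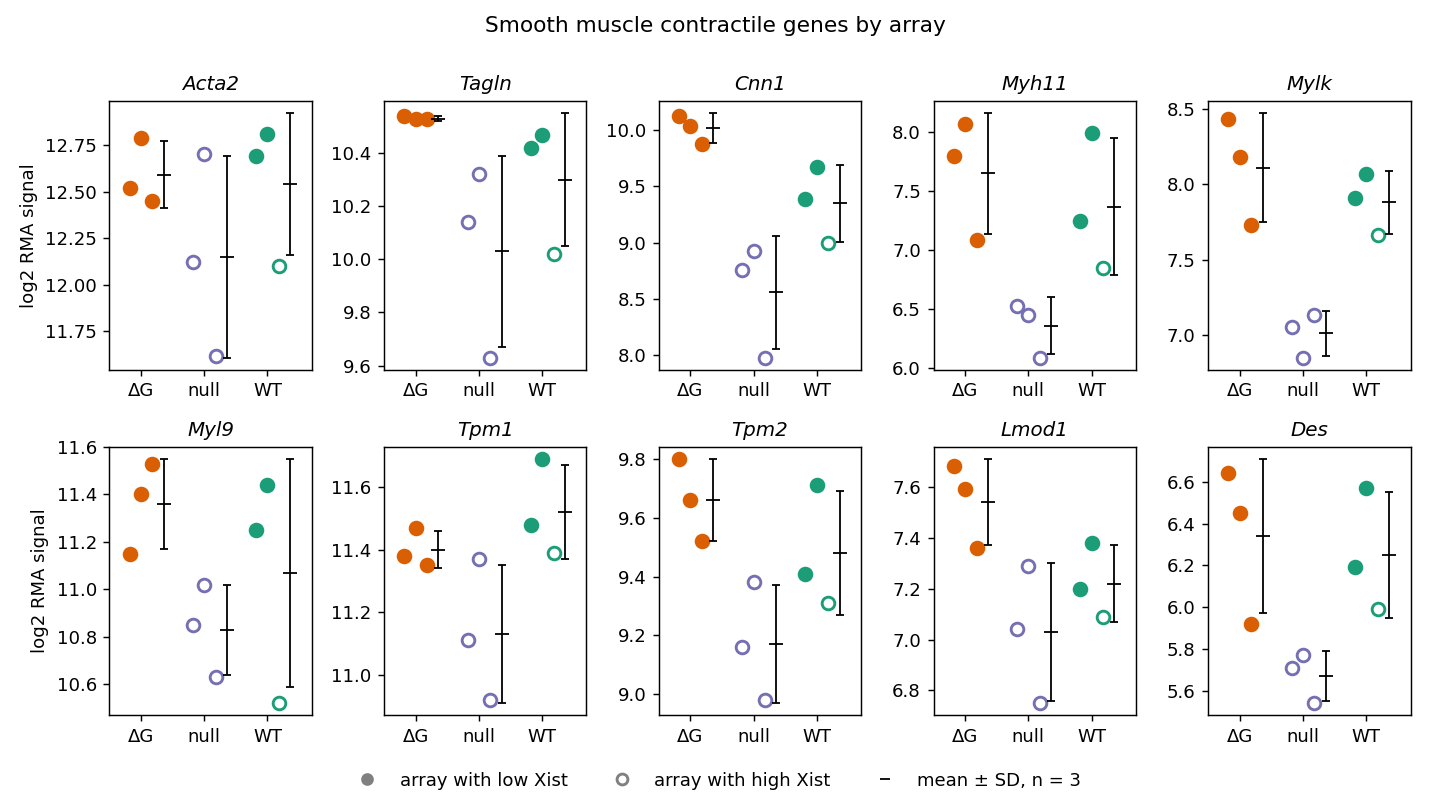
Log2 RMA signal (vertical axis, a separate scale for each gene) of the 10 genes on the 3 ΔG, 3 null and 3 WT arrays, with the mean ± SD (n = 3) at the right of each group. Open circles are the 4 arrays with high Xist, and the open WT circle, replicate 3, is the lowest WT point in every panel.

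The thin filament holds smooth muscle alpha-actin, encoded by Acta2 (probe set 10467124), the best known marker of contractile fibroblasts. Its signal was 12.52, 12.79 and 12.45 on ΔG replicates 1, 2 and 3, 12.12, 12.70 and 11.62 on null replicates 1, 2 and 3, and 12.69, 12.81 and 12.10 on WT replicates 1, 2 and 3. The groups overlapped, and null replicates 1 and 2 lay within the WT range. The log2 difference was 0.05 for ΔG minus WT (SE 0.24), −0.39 for null minus WT (SE 0.24) and 0.44 for ΔG minus null (SE 0.24), none of them called in limma (adjusted p = 0.97, 0.33 and 0.32). With repeated quantile normalization the differences were 0.05, −0.26 and 0.31 (SE 0.13 each), again not called in limma (adjusted p = 0.94, 0.18 and 0.15). Actin genes are near-identical in their coding parts, so this probe set may share signal with other actins.

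Tagln (probe set 10593123) encodes transgelin, an actin-bundling protein also called SM22 alpha. It read 10.54, 10.53 and 10.53 on the ΔG arrays, 10.14, 10.32 and 9.63 on the null arrays and 10.42, 10.47 and 10.02 on the WT arrays. The ΔG arrays lay within 0.01 of each other and above every null and WT array, while null and WT overlapped. Its differences were 0.23 for ΔG minus WT (SE 0.16, limma adjusted p = 0.65), −0.28 for null minus WT (SE 0.16, adjusted p = 0.29) and 0.50 for ΔG minus null (SE 0.16, adjusted p = 0.079). The last was called without null replicate 2 (adjusted p = 0.039).

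Cnn1 (probe set 10583809) encodes calponin 1, which binds actin and restrains the myosin ATPase. It read 10.13, 10.04 and 9.88 on the ΔG arrays, 8.76, 8.93 and 7.98 on the null arrays and 9.39, 9.67 and 9.0 on the WT arrays. The 3 groups did not overlap, with every ΔG array above every WT array and every null array below. It fell 1.73-fold in null against WT (log2 −0.79, SE 0.22, limma adjusted p = 0.028) and was 2.74-fold higher in ΔG than in null (log2 1.46, SE 0.22, adjusted p = 0.0028). In ΔG against WT it had the largest difference of the 10 genes, 0.66 (SE 0.22), which was not called (adjusted p = 0.24). The call in null minus WT was lost without WT replicate 1, WT replicate 2 or null replicate 3 (adjusted p = 0.073, 0.11 and 0.071), and in the last case the change was −0.51. With a variance trend and robust eBayes the adjusted p was 0.066.

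Tpm1 and Tpm2 (probe sets 10594661 and 10512499) encode tropomyosins, coiled rods that lie along actin and gate access to myosin. Both are expressed as several spliced forms, which 1 probe set per gene does not separate. Tpm1 read 11.38, 11.47 and 11.35 on the ΔG arrays, 11.11, 11.37 and 10.92 on the null arrays and 11.48, 11.69 and 11.39 on the WT arrays. Each null array lay below each WT array, by as little as 11.37 for null replicate 2 against 11.39 for WT replicate 3. Tpm1 fell 1.31-fold in null against WT (log2 −0.39, SE 0.11, limma adjusted p = 0.034), and its difference was −0.12 in ΔG minus WT (SE 0.11, adjusted p = 0.77) and 0.27 in ΔG minus null (SE 0.11, adjusted p = 0.18). The call was lost without WT replicate 1 or 2 (adjusted p = 0.067 and 0.13) or null replicate 1 or 3 (adjusted p = 0.10 and 0.12), and with only the null and WT arrays fitted (0.053).

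Tpm2 read 9.80, 9.66 and 9.52 on the ΔG arrays, 9.16, 9.38 and 8.98 on the null arrays and 9.41, 9.71 and 9.31 on the WT arrays. The ΔG arrays all lay above the null arrays, while WT overlapped both. Tpm2 was 1.4-fold higher in ΔG than in null (log2 0.49, SE 0.13, limma adjusted p = 0.035), and differed by 0.18 in ΔG minus WT (SE 0.13, adjusted p = 0.64) and −0.30 in null minus WT (SE 0.13, adjusted p = 0.13). The call was lost without ΔG replicate 1 or 2 or null replicate 1 or 3 (adjusted p = 0.14, 0.10, 0.11 and 0.12).

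Lmod1 (probe set 10350123) encodes leiomodin 1, which starts new actin filaments in smooth muscle. It read 7.68, 7.59 and 7.36 on the ΔG arrays, 7.04, 7.29 and 6.75 on the null arrays and 7.20, 7.38 and 7.09 on the WT arrays. ΔG and null did not overlap. It was 1.43-fold higher in ΔG than in null (log2 0.52, SE 0.13, limma adjusted p = 0.036), with differences of 0.32 in ΔG minus WT (SE 0.13, adjusted p = 0.38) and −0.20 in null minus WT (SE 0.13, adjusted p = 0.37). Without ΔG replicate 1 or 2 or null replicate 1 or 3 the call was lost (adjusted p = 0.14, 0.12, 0.11 and 0.11), and without WT replicate 1 it stood just under the threshold (0.0497).

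The motor of the contractile filament is smooth muscle myosin, whose heavy chain is encoded by Myh11 (probe set 10437885), the marker most restricted to differentiated smooth muscle. It read 7.80, 8.07 and 7.09 on the ΔG arrays, 6.53, 6.45 and 6.09 on the null arrays and 7.25, 7.99 and 6.85 on the WT arrays. All null arrays lay below all others, and ΔG and WT overlapped with ranges of 0.98 and 1.14. Myh11 fell 2.01-fold in null against WT (log2 −1.01, SE 0.28, limma adjusted p = 0.029) and was 2.45-fold higher in ΔG than in null (log2 1.29, SE 0.28, adjusted p = 0.017). In ΔG minus WT it differed by 0.29 (SE 0.28, adjusted p = 0.78). Each WT and null array mattered to the call in null minus WT except WT replicate 3: without WT replicate 1 or 2 the adjusted p was 0.054 and 0.10, and without null replicate 1, 2 or 3 it was 0.057, 0.06 and 0.10. The call between the mutants was lost without ΔG replicate 1 or 2 or null replicate 3 (adjusted p = 0.07, 0.075 and 0.066). With a variance trend and robust eBayes neither call was kept (adjusted p = 0.082 in null minus WT and 0.057 in ΔG minus null).

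Mylk (probe set 10435345) encodes myosin light chain kinase, the enzyme that turns the motor on, and had the lowest p of the 10 genes in null minus WT and in ΔG minus null. It read 8.43, 8.18 and 7.73 on the ΔG arrays, 7.05, 6.85 and 7.13 on the null arrays and 7.91, 8.07 and 7.66 on the WT arrays. The null arrays lay apart from both other groups. Mylk fell 1.82-fold in null against WT (log2 −0.87, SE 0.16, limma adjusted p = 0.0035), was 2.14-fold higher in ΔG than in null (log2 1.10, SE 0.16, adjusted p = 0.0023), and differed by 0.23 in ΔG minus WT (SE 0.16, adjusted p = 0.65). Both calls were kept when any 1 of the 9 arrays was left out.

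Myl9 (probe set 10477920) encodes the regulatory light chain that this kinase phosphorylates. It read 11.15, 11.40 and 11.53 on the ΔG arrays, 10.85, 11.02 and 10.63 on the null arrays and 11.25, 11.44 and 10.52 on the WT arrays. WT replicate 3 had the lowest value of all 9 arrays, so WT enclosed the null range. The differences were 0.29 in ΔG minus WT (SE 0.20), −0.24 in null minus WT (SE 0.20) and 0.53 in ΔG minus null (SE 0.20), with no call in limma (adjusted p = 0.64, 0.50 and 0.14). Without WT replicate 3, Myl9 was called in null minus WT (log2 −0.51, adjusted p = 0.028) and in ΔG minus null (adjusted p = 0.023), a call also made with only the ΔG and null arrays fitted (0.029).

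Des (probe set 10347583) encodes desmin, the muscle intermediate filament that links contractile units to the membrane. It read 6.64, 6.45 and 5.92 on the ΔG arrays, 5.71, 5.77 and 5.54 on the null arrays and 6.19, 6.57 and 5.99 on the WT arrays. The null arrays were the lowest 3 of the 9, and ΔG replicate 3 lay below every WT array. All null values lay below the array medians (6.329 to 6.401), as did WT replicates 1 and 3 and ΔG replicate 3, and no detection calls were used. Des fell 1.49-fold in null against WT (log2 −0.58, SE 0.18, limma adjusted p = 0.046) and was 1.58-fold higher in ΔG than in null (log2 0.66, SE 0.18, adjusted p = 0.043), with a difference of 0.09 in ΔG minus WT (SE 0.18, adjusted p = 0.92). Both calls stood close to the threshold and were lost without any 1 null array, without WT replicate 1 or without ΔG replicate 2 (adjusted p = 0.057 to 0.14), the first also without WT replicate 2 (0.17) and the second without ΔG replicate 1 (0.17). A variance trend with robust eBayes ended both as well (adjusted p = 0.066 and 0.065).

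**Figure D2:**
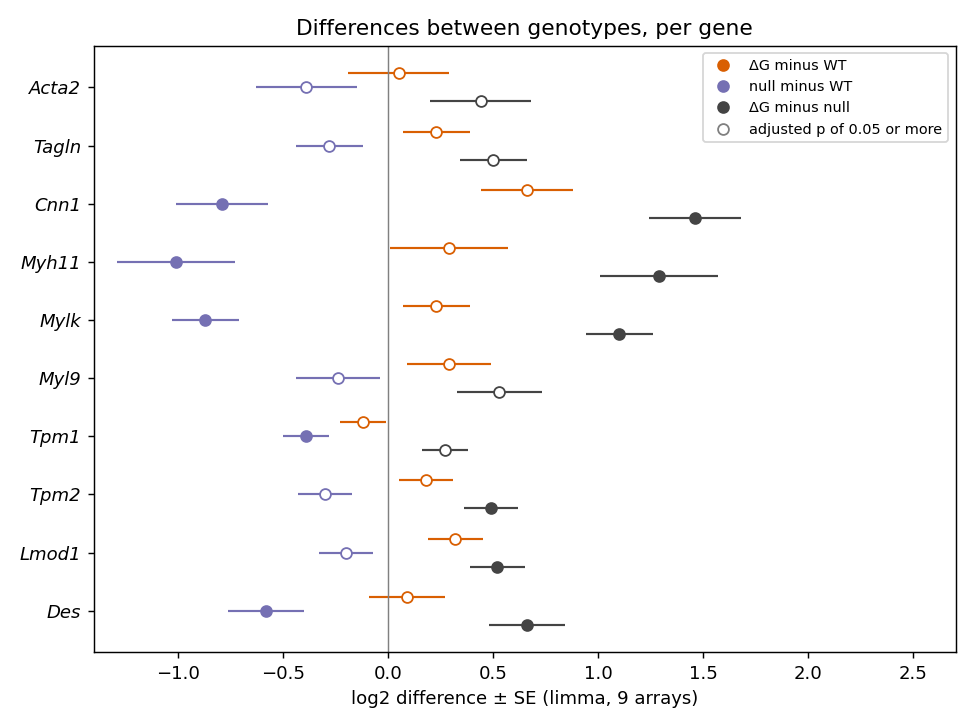
Log2 difference ± SE (horizontal axis, limma fit over 9 arrays) of each gene, with the 3 comparisons on a shared axis in different colours. Filled points passed an adjusted p of 0.05; all 10 points of null minus WT lie below 0 and all 10 of ΔG minus null above 0.

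Across the group, ΔG minus WT gave a median log2 difference of 0.23 over the 10 genes, against −0.02 over all genes tested, with 9 of 10 above 0 where 43.3% of all genes were above 0. No gene of the 10 was called in limma, where 0.813% of all genes were called, 0.602% higher and 0.211% lower. Of the 10, 2 (Cnn1 and Lmod1) had an unadjusted p under 0.05, as had 11.8% of all genes. For Cnn1 and Tagln every ΔG array lay above every WT array, as was so for 7.05% of all genes. Without WT replicate 3 the median difference was 0.06, and none was called without any 1 array.

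In null minus WT the median was −0.39, against −0.01 over all genes, and all 10 differences were below 0, as were 52.5% of all genes. The 5 that fell were Cnn1, Myh11, Mylk, Tpm1 and Des, which is 5 of 10 where 18.4% of all genes were called, 10.1% lower and 8.38% higher. An unadjusted p under 0.05 was reached by 6 of the 10 and 30% of all genes. All null arrays lay below all WT arrays for the same 5 genes and for 18.9% of all genes. ΔG minus WT and null minus WT share the WT arrays. The number called was 1 without WT replicate 1, WT replicate 2 or null replicate 3, 2 without null replicate 1, 3 without null replicate 2 and 6 without WT replicate 3, where the median was −0.56. In the moderated F test over the 3 genotypes 4 members passed (Cnn1, Myh11, Mylk and Des), and 15.3% of all genes did. That number was 2 without null replicate 1 or null replicate 3. Fits without an array can lose precision, and the shares of all genes called in them were not set beside these numbers.

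In ΔG minus null, which compares the mutants without the WT arrays as a shared control, the median was 0.52, against −0.01 over all genes. All 10 differences were above 0, as were 47.9% of all genes. The 6 called were Cnn1, Myh11, Mylk, Tpm2, Lmod1 and Des, where 8.71% of all genes were called, 4.44% higher and 4.27% lower. An unadjusted p under 0.05 was reached by 9 of the 10 and 23.1% of all genes. All ΔG arrays lay above all null arrays for 8 of the 10, all but Acta2 and Tpm1, and for 13.8% of all genes. The number called was 2 without ΔG replicate 1, ΔG replicate 2 or null replicate 3 and 3 without null replicate 1. The shares of all genes called in those fits were not set beside it.

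The Xist pattern moved with these results. With Y-linked signal (the mean of the 3 genes) as a covariate, no member was called in any of the comparisons. The standard error was wider for all 10 members in ΔG minus null and for 9 in null minus WT. A lost call can thus come from lower precision, and the share of all genes called in that fit was not set beside it. In null minus WT the differences then ran from −0.57 to 0.35 with a median of −0.15 and standard errors of 0.16 to 0.34. Mylk, Cnn1 and Myh11 had −0.57, −0.37 and −0.35 there (limma adjusted p = 0.15, 0.52 and 0.62), while Acta2, Tagln and Myl9 turned to 0.11, 0.04 and 0.35. In ΔG minus null the differences ran from −0.33 to 0.85 with a median of 0.16, 8 of 10 being above 0, and Cnn1 and Mylk had 0.85 and 0.67 (adjusted p = 0.37 and 0.34). That fit takes the effect of the Xist pattern almost wholly from the WT arrays, of which 1 was high in Xist. Against WT replicate 3 alone, the only WT array with the Xist pattern of the null arrays, the median of null minus WT was −0.20 and 7 of 10 differences were below 0, led by Mylk at −0.64 (SE 0.22, adjusted p = 0.12), Myh11 at −0.50 (SE 0.31, 0.39) and Cnn1 at −0.44 (SE 0.29, 0.43). ΔG minus the 2 WT arrays low in Xist had a median of 0.06, with 7 of 10 above 0. How much of the differences the Xist pattern accounts for was not tested beyond these values.

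**Figure D3:**
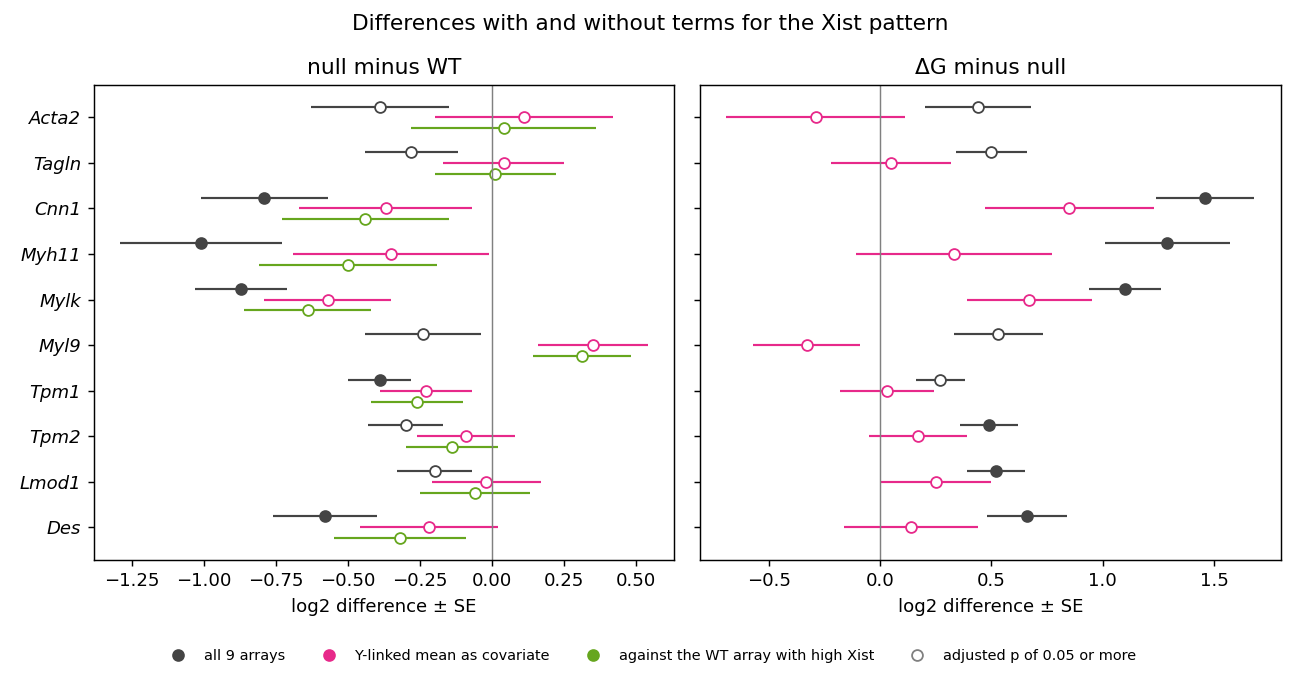
Log2 difference ± SE of the 10 genes in null minus WT (left) and ΔG minus null (right), fitted to all 9 arrays, fitted with Y-linked signal as a covariate, and, on the left, set against WT replicate 3 only. Filled points passed an adjusted p of 0.05, and no point fitted with the covariate or against that array did.

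Arrays of a genotype differed in the level of the whole group of genes. The mean signal over the 10 genes was 9.61, 9.62 and 9.34 on ΔG replicates 1, 2 and 3, 8.85, 9.01 and 8.53 on null replicates 1, 2 and 3, and 9.32, 9.58 and 8.99 on WT replicates 1, 2 and 3. Null replicate 3 was the lowest of the 9 arrays for 8 genes, null replicate 2 for Mylk and WT replicate 3 for Myl9. Within WT, replicate 2 was the highest for all 10, and within ΔG replicate 3 was the lowest for 8. The SD within groups, pooled over the genotypes, was above the median of all genes (0.11) for each of the 10, with a median of 0.27. It ranged between 0.16 for Tpm1 and 0.46 for Myh11, which stood above 82.2% and 99.5% of all genes. Each member followed the mean of the other 9 over the arrays, with Pearson's r between 0.778 for Myl9 and 0.969 for Tpm2 (9 arrays, which share genotype and Xist pattern, given as a description).

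**Figure D4:**
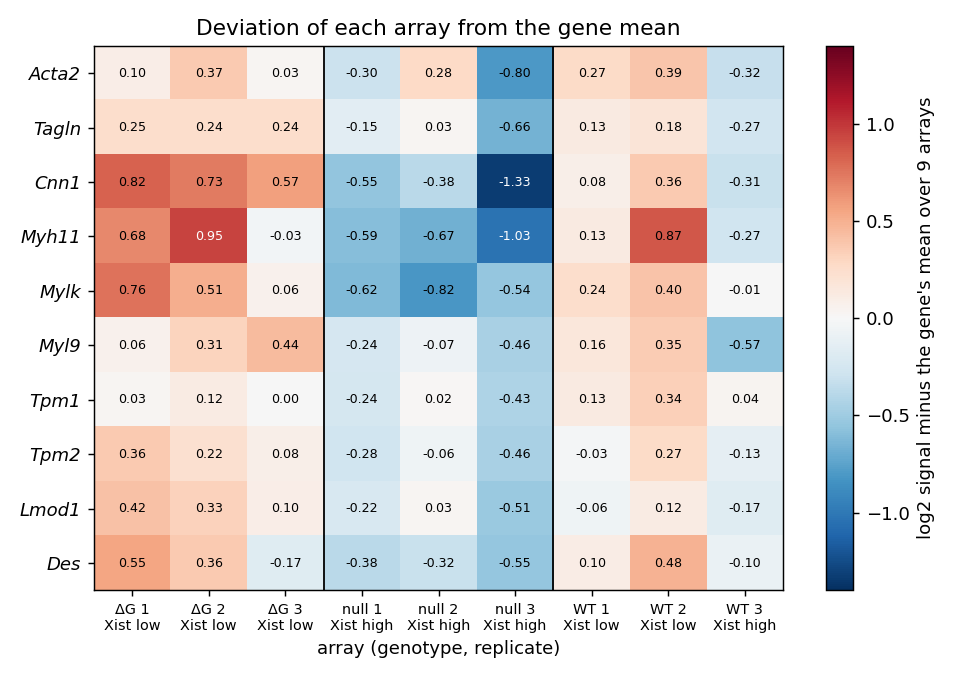
Log2 signal minus the mean of each gene over 9 arrays (colour and printed value) for the 10 genes (rows) on each array (columns, ΔG, null and WT, with the Xist pattern under each name). Null replicate 3 is negative for every gene and ΔG replicates 1 and 2 are positive for every gene.

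Other genes of the smooth muscle apparatus, 35 measured of 36 listed, were examined beside the members. None was called in ΔG minus WT by limma, 7 having an unadjusted p under 0.05, and the median difference was 0.12. In null minus WT 9 fell and 1 rose, with a median of −0.15, where 10.1% of all genes were called lower and 8.38% higher. In ΔG minus null 11 were higher and none was lower, with a median of 0.26. Of all genes, 4.44% were called higher and 4.27% lower there. Itga8, an integrin subunit of smooth muscle and mesenchyme, fell 2.10-fold in null against WT (log2 −1.07, SE 0.12, adjusted p = 0.00014). Its signal was 9.35, 9.54 and 9.44 on the null arrays and 10.52, 10.77 and 10.26 on the WT arrays, without overlap, and it was also called against WT replicate 3 alone (log2 −0.81, adjusted p = 0.0045) and with the Y-linked covariate (log2 −0.76, adjusted p = 0.0065). Itga1, a collagen-binding integrin subunit, fell 1.90-fold, Fhl2, a LIM protein that binds integrins and serum response factor, fell 1.45-fold, and Smtnl2, a smoothelin-like protein, fell 1.41-fold (adjusted p = 0.0014, 0.0059 and 0.0021). Fhl2 was not called against WT replicate 3 alone (adjusted p = 0.099) or with the covariate (0.11), nor Itga1 with the covariate (0.067). With the covariate 2 genes of the list were called for null minus WT and 0 for ΔG minus null, and against WT replicate 3 alone 3 were. Without WT replicate 2, 6 were called in null minus WT, and without ΔG replicate 1, ΔG replicate 2 or null replicate 1, 7 in ΔG minus null. Such fits can lose precision, and the shares of all genes called in them were not set beside these counts.

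Relatives of the members outside smooth muscle were mostly non-muscle genes, with a few of striated muscle such as Lmod2, Mylk2 and Mylk3. In null minus WT 3 of 20 were called, where 18.4% of all genes were. Of 20 measured of 21 listed, 2 rose and 1 fell in null against WT, 2 were higher in ΔG than in null, and ΔG minus WT held no call (3 at an unadjusted p under 0.05 in limma). In ΔG minus null 4.44% of all genes were called higher and 4.27% lower. The median differences were 0.06 in ΔG minus WT, 0.01 in null minus WT and 0.04 in ΔG minus null. Tagln2, the widely expressed relative of Tagln, rose 1.63-fold in null (log2 0.70, SE 0.14, adjusted p = 0.006), with 9.76, 9.76 and 9.46 on the null arrays and 9.20, 8.90 and 8.77 on the WT arrays. Tagln3, the relative known from neurons, fell 1.54-fold (log2 −0.63, adjusted p = 0.015), and Tmod2, a cap of actin filament ends known from neurons, rose 1.37-fold (log2 0.46, adjusted p = 0.0069). Against WT replicate 3 alone Tagln2 and Tagln3 had log2 differences of 0.89 and −0.90 and were called (adjusted p = 0.021 and 0.016), while Tmod2 had 0.36 and was not (0.15). Tagln3 was not called without WT replicate 2 or 3 or null replicate 1 or 3 (adjusted p up to 0.063). Myh10, a non-muscle myosin heavy chain, was 1.30-fold higher in ΔG than in null (log2 0.38, adjusted p = 0.022) a call lost without ΔG replicate 1 or 2 or null replicate 1 or 3 (adjusted p = 0.066 to 0.091), and differed by 0.40 in ΔG minus WT (adjusted p = 0.068).

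Among the regulators of serum response factor 4 of 23 were called in null minus WT, where 18.4% of all genes were, and 19 were not. Of 23 measured of 25 listed, 3 rose and 1 fell in null against WT, 2 were higher and 1 was lower in ΔG than in null, and ΔG minus WT held no call (2 at an unadjusted p under 0.05 in limma). In ΔG minus null 4.44% of all genes were called higher and 4.27% lower. Klf5, a Krüppel-like factor of proliferating smooth muscle, rose 1.75-fold in null (log2 0.81, SE 0.14, adjusted p = 0.002). Tead4, a TEAD factor, rose 1.32-fold and Elk4, a partner of serum response factor at growth genes, 1.21-fold (adjusted p = 0.016 and 0.031), while Fhl2, given above, fell. Without WT replicate 3 or null replicate 2 only 2 genes of the list were called in null minus WT, with Tead4 and Elk4 lost. Elk4 was not called either without WT replicate 1, WT replicate 2 or null replicate 1 (adjusted p = 0.074, 0.095 and 0.091). None of the 4 was called against WT replicate 3 alone (adjusted p = 0.077 to 0.26). Srf, Myocd, Mrtfa and Mrtfb, picked after their values were seen because they encode the factors named at the outset, were not called in any comparison. Srf averaged 8.60 ± 0.17 in ΔG and 8.72 ± 0.17 in null, against 8.45 ± 0.13 in WT. Myocd stood at 5.02 to 5.37 on all arrays.

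Genes of the TGF-beta pathway, a known inducer of the contractile genes, were called in both directions, at 4 of 19 in null minus WT, where 18.4% of all genes were called, and 4 of 19 in ΔG minus null, where 8.71% were. Of 19 measured of 20 listed, 2 rose (Smad2, a signal transducer, and Ltbp1, which stores latent TGF-beta) and 2 fell (Ltbp2, a matrix protein of the same family, and Lefty1, an antagonist) in null against WT, at log2 0.30, 0.57, −0.39 and −0.32 (limma adjusted p = 0.0093, 0.037, 0.043 and 0.014). None of these 4 was called against WT replicate 3 alone, and without WT replicate 1, WT replicate 3, null replicate 1 or null replicate 2 the list held 2 calls. In ΔG minus null 3 were higher and 1 was lower (1 call without ΔG replicate 1 or 2 or null replicate 1 or 3), and ΔG minus WT held no call, with 3 at an unadjusted p under 0.05. Medians were 0.04 in ΔG minus WT, −0.01 in null minus WT and 0.00 in ΔG minus null. Lefty1 was weak, at 4.80 to 5.39 over all arrays, below the array medians of 6.329 to 6.401.

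Markers of fibroblasts and of myofibroblasts were mostly lower in null than in WT cells, as the contractile genes were. Of 15 fibroblast markers 11 fell and none rose in null against WT, with a median of −0.51. Of 13 measured myofibroblast genes 7 fell and none rose, with a median of −0.55. Of all genes, 10.1% were called lower in that comparison and 8.38% higher. Dpt, Dcn and Thy1 fell 13.9-fold, 2.60-fold and 1.65-fold, and Fap, a surface protease of activated fibroblasts, fell 2.71-fold (log2 −1.44, SE 0.15, limma adjusted p = 0.00011). In ΔG minus WT neither list held a called gene, and 13 of 15 and 11 of 13 differences were below 0, with medians of −0.09 and −0.08. The contractile genes had a median of 0.23 there, or 0.06 without WT replicate 3. Without WT replicate 2, null replicate 2 or null replicate 3 the number of myofibroblast genes called was 3, 11 and 4. With the covariate 2 fibroblast markers and 1 myofibroblast gene were called in null minus WT. The shares of all genes called in these fits were not set beside the counts. In ΔG minus null, fitted to all arrays, 8 fibroblast markers and 3 myofibroblast genes were higher and none was lower. Of all genes, 4.44% were called higher there and 4.27% lower. The medians of the lists were 0.45 and 0.47, beside 0.52 for the contractile genes. Array by array the fibroblast list followed the contractile genes only in part. Replicate 3 had the lowest mean of both in WT (10.44 and 8.99) and in ΔG (10.19 and 9.34). Within null the mean of the fibroblast list was lowest on replicate 2 (9.62), where the contractile genes (9.01) and the myofibroblast list (11.15) were highest.

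Markers of other cell types gave the following values, beside 10.1% of all genes called lower and 8.38% called higher in null minus WT. Of 11 pericyte markers 3 fell and 1 rose in null against WT, with summed signal, as the mean over the list, at 7.31 to 7.53 on ΔG arrays, 7.27 to 7.37 on null arrays and 7.30 to 7.41 on WT arrays. Cspg4, the NG2 proteoglycan, rose 1.98-fold (adjusted p = 0.00016), and Rgs5, Pdgfrb and Abcc9 were 1.43-fold, 1.24-fold and 1.35-fold lower, Pdgfrb and Abcc9 losing their call without WT replicate 1 or 2 and all 3 without null replicate 1 or 3 (Abcc9 also without null replicate 2). None of the 23 striated muscle genes was called in any comparison in limma (1 in ΔG minus WT, 2 in null minus WT and 7 in ΔG minus null at an unadjusted p under 0.05), and their mean was 6.0 to 6.04, 6.0 to 6.06 and 6.04 to 6.13 on ΔG, null and WT arrays. The mean of the 15 macrophage markers was 5.86 to 7.18 on ΔG arrays, 5.66 to 6.04 on null arrays and 5.48 to 6.63 on WT arrays, with WT replicate 3 and ΔG replicate 3 lowest in their groups, and none was called (unadjusted p under 0.05 for 1 in ΔG minus WT, 0 in null minus WT and 5 in ΔG minus null). All 15 lay above 0 in ΔG minus WT (median 0.49) and in ΔG minus null (median 0.60), and 12 of 15 below 0 in null minus WT (median −0.22), beside medians of 0.23, 0.52 and −0.39 for the contractile genes. Without ΔG replicate 3, 9 macrophage markers were called in ΔG minus null. The share of all genes called in that fit was not set beside it, and with all arrays it was 8.71%. Of 10 endothelial markers 1 rose (Erg, 1.79-fold) and 1 fell (Emcn, 1.76-fold, adjusted p = 0.049, lost without any 1 of 7 arrays) in null against WT, their mean being 6.03 to 6.07 on ΔG arrays, 6.11 to 6.28 on null arrays and 6.08 to 6.21 on WT arrays. Of 10 epithelial markers Krt19 rose 2.78-fold, and their mean was 5.55 to 5.68, 5.77 to 5.84 and 5.61 to 5.67 on ΔG, null and WT arrays. On the null arrays Rgs5 (5.03 to 5.55), Abcc9 (5.71 to 5.79) and Emcn (4.82 to 5.19) lay below the array medians of 6.329 to 6.401. The part of these cell types in the values of the contractile genes was not tested.

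The genes most like the contractile group over the 9 arrays were ranked by Pearson's r with the mean of the standardised signals of the 10 members, among 2295 named genes with an SD of at least 0.25. The 8 highest were Tes, which encodes testin of focal adhesions (0.984), Ctsc, a lysosomal protease (0.974), Tmsb4x, thymosin beta 4, which sequesters actin monomers (0.974), Igfbp7, a secreted growth factor binding protein (0.969), Gsn, gelsolin, which severs actin filaments (0.966), Fstl3, an activin-binding protein (0.965), Rnf128, a ubiquitin ligase (0.961), and Itgb1, the common beta subunit of matrix-binding integrins (0.958). Tes had 8.85, 8.86 and 8.76 on the ΔG arrays, 8.33, 8.50 and 8.12 on the null arrays and 8.66, 8.95 and 8.55 on the WT arrays, so that WT replicate 3 and null replicate 3 were the lowest of their groups here too. The correlations describe 9 arrays that share genotype and Xist pattern, and 62 genes had an r above 0.9.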

How the data were processed

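Total RNA from 9 MEF cultures was hybridised to Affymetrix Mouse Gene 1.0 ST arrays. The deposited table holds log2 values that the authors made with RMA (background correction, quantile normalisation, summary per probe set), per the series text, which names BRB-ArrayTools, and the submitters' processing notes, which name RMA and affy. Tool versions and a build were not given in the sources used here. Precision is limited by how many arrays there were. No detection calls were used.

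Of 35512 probe sets 1 had no values. A platform annotation gave 1 symbol to 21789, several to 1621 and none to 12101. The probe set with the highest mean was kept for each gene (19938 genes, 999 with several). A linear model over the 9 arrays (limma 3.58.1 in R 4.3.3) had one coefficient for each genotype, eBayes without trend, and Benjamini-Hochberg adjustment over all genes at 0.05, tested on simulated data. Groups came from the genotype labels. The series text describes the cultures as littermates, but no label ties an array number to a litter, so arrays were not paired.

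The members and gene lists were chosen with earlier results of these data known. Named genes are the members, Rb1, the sex-linked genes, up to 4 genes of each list with the lowest p against WT, of which those without a call are given by their list only, and the 8 genes most like the members. Alternatives covered normalisation, a filter on dim genes, the variance model, the samples in the fit, a replicate block, the probe set per gene, the Xist pattern and each array left out. Promoters came from RefSeq. Listed genes without a single-symbol probe set were not analysed here.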

Additional observations from a re-analysis of the deposited data

How the results depend on the processing

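The median difference of the 10 genes kept its sign under each alternative run. It ranged over 0.06 to 0.32 in ΔG minus WT, −0.56 to −0.24 in null minus WT and 0.41 to 0.68 in ΔG minus null when 1 array was left out, and in ΔG minus null it was 0.16 with the Y-linked covariate. The number of members called when 1 array was left out was 0 throughout in ΔG minus WT, 1 to 6 in null minus WT (5 with all arrays), 2 to 7 in ΔG minus null (6 with all) and 2 to 6 in the F test (4 with all). With the Y-linked covariate it was 0 in null minus WT, in ΔG minus null and in the F test, and against the WT array of the same Xist pattern it was 0 in null minus WT. There the lone WT array was taken to vary like the other groups, so a lost call can come from lower precision. With the covariate the standard error was wider for 9 of the 10 members in null minus WT, for all 10 in ΔG minus null and for 2 in ΔG minus WT. With a variance trend and robust eBayes 2 members were called in null minus WT and 4 in ΔG minus null. The F test called 7 with array median centring and 8 with a replicate block. The shares of all genes called in these alternative fits were not set beside the counts.

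Signs turned as follows, all without a call. With the Y-linked covariate they were Acta2 (−0.18), Myh11 (−0.02) and Des (−0.08) in ΔG minus WT, Acta2 (0.11), Tagln (0.04) and Myl9 (0.35) in null minus WT, and Acta2 (−0.29) and Myl9 (−0.33) in ΔG minus null. With the WT arrays of the same Xist pattern only they were Acta2 (−0.17) and Des (−0.04) in ΔG minus WT, which is the same fit as leaving out WT replicate 3, and Acta2 (0.04), Tagln (0.01) and Myl9 (0.31) in null minus WT. In ΔG minus WT, Acta2 also turned without ΔG replicate 2 (−0.05) and Des without ΔG replicate 1 (−0.06). With 1 array left out the difference in ΔG minus WT ran from −0.17 to 0.19 for Acta2 and from −0.06 to 0.29 for Des. The cause was not tested.

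Arrays with the same number did not all deviate together: over the pairs between genotypes the correlation of their deviations ran from −0.084 to 0.269, with the 3 pairs of replicates 2 at 0.122 to 0.269, and pairs of different numbers ran from −0.241 to 0.137. WT replicate 1 correlated best with ΔG replicate 3. The mean signal of the 10 genes was highest on replicate 2 and lowest on replicate 3 in each genotype. With the replicate number as a block members called numbered 0 in ΔG minus WT, 6 in null minus WT and 7 in ΔG minus null, against 0, 5 and 6 without it, Tpm2 being added in null minus WT (adjusted p = 0.046) and Tagln in ΔG minus null (adjusted p = 0.028).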
